A study of Mus musculus with 18 samples.

Results

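The collagen genes were followed across 3 fat depots of wildtype (WT) and caspase-6 knockout (C6KO) mice, as a transcript-level view of the fibrous and basement membrane matrix of obese adipose tissue. The genes were chosen by name alone, as every gene whose symbol reads Col, a number, the letter a and a number, and this gave 44 of the 25124 genes in each depot's table. By class they were 11 fibrillar collagens, 6 type IV chains, the 2 multiplexins Col15a1 and Col18a1, 6 type VI chains, 9 FACIT collagens (fibril-associated collagens with interrupted triple helices), 3 chains of the network collagens VIII and X, 4 transmembrane collagens and 3 others. RNA-seq was done on brown fat (BAT) and on the inguinal (iWAT) and epididymal (eWAT) white fat, with 3 libraries for each genotype in each depot and 18 in all.

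All mice were male, on the C57BL/6J background, and had been fed a high fat diet (HFD, 60% fat) for 12 weeks that began at 10 to 14 weeks of age. C6KO mice carried a global knockout of Casp6, and their WT littermates came from the same heterozygous crosses. Every group thus shared the HFD, and a lean group was not analysed here. The libraries were made from poly(A) RNA of whole tissue pieces, so fewer cells of a type and less RNA per cell cannot be told apart. The labels call the libraries of a group biological replicates and do not name the animals, and a p-value below measures only the spread between such libraries.

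Collagens are secreted or membrane proteins built from 3 chains wound into a triple helix. Fibrillar collagens such as types I, III and V form the rope-like fibrils that accumulate in fibrotic adipose tissue and are made chiefly by fibroblasts and their progenitors. Type IV collagen forms the sheet of the basement membrane that surrounds each adipocyte and each vessel, and the multiplexins XV and XVIII sit in the basement membrane zone. Type VI collagen forms beaded filaments around adipocytes and is known as an abundant matrix component of obese fat, and FACIT collagens decorate fibril surfaces.

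The depth and the tissue labels bear on every collagen value. BAT libraries held 7803108 to 12428683 counts, iWAT libraries 16506034 to 19043523 and eWAT libraries 16717201 to 19139694. CPM (counts scaled by library size) of Ucp1, which encodes the uncoupling protein of brown fat, ran from 4060 to 9760 in BAT and stayed at or below 6.13 in every white depot library. Casp6 counts of WT and C6KO were 289 to 342 and 99 to 141 for iWAT. For eWAT they were 322 to 422 and 74 to 124 and for BAT 127 to 145 and 26 to 71, so the groups did not overlap in any depot. In edgeR's quasi-likelihood test Casp6 itself had a Benjamini-Hochberg adjusted p of 0.0132 in eWAT, 0.0671 in BAT and 0.0751 in iWAT. Libraries differed in a way that genotype did not explain. In BAT, the summed CPM of 7 skeletal muscle markers was 35.3, 30400 and 1320 in WT-1 to WT-3 and 4790, 349 and 5810 in C6KO-1 to C6KO-3. In iWAT, the summed CPM of 7 macrophage markers was 351 and 378 in C6KO-1 and C6KO-2 but 1130 in C6KO-3, against 1510 to 1670 in WT.

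The promoters of 4 collagens are printed: Col3a1, Col5a3 and Col18a1, which were called lower in C6KO BAT, and Col1a2, the type I chain used below as the fibrillar reference. Col5a2 was called lower in C6KO BAT as well, but no promoter was matched for it. Each is the stretch of 250 bases just upstream of the transcript start, from RefSeq on GRCm38.p6, read 5′ to 3′ on the strand of the gene. Capitals mark the GC box GGGCGG (or CCGCCC, its reverse complement), the letters SP1 is known to bind, and the CCAAT box CCAAT (or ATTGG). The Col1a2 window (chr6:4505368-4505617, plus strand) held 2 GC boxes and 1 CCAAT box, and so did the Col5a3 window (chr9:20815068-20815317, minus strand). The Col3a1 window (chr1:45311288-45311537, plus strand) and the Col18a1 window (chr10:77113706-77113955, minus strand) held neither set of letters. The Col18a1 window is that of the counted transcript, and the window of another Col18a1 start (chr10:77166531-77166780, minus strand, not printed) held 3 GC boxes and 1 CCAAT box.
Col1a2: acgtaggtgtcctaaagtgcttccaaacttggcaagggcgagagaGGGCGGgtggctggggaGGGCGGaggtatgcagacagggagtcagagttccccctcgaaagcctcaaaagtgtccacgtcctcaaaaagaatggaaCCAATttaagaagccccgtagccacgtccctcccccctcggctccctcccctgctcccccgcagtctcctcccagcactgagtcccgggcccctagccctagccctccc
Col3a1: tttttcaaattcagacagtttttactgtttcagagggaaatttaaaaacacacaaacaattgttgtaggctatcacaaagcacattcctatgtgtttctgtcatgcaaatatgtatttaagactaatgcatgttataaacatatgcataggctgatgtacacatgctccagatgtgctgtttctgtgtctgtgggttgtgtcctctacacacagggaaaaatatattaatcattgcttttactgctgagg
Col5a3: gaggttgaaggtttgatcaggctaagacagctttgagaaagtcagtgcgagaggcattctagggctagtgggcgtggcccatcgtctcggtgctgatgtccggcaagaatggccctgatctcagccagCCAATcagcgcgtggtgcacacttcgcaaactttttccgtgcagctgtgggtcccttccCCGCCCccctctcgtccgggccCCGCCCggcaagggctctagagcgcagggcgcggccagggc
Col18a1: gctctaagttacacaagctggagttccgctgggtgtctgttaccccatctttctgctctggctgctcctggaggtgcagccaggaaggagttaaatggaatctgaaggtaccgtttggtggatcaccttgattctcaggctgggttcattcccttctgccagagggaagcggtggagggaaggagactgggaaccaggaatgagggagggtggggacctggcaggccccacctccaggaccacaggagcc
Promoters were matched for 35 of the 44 collagens, which gave 38 windows because some genes have several starts. A GC box on either strand was in 22 of these 38 windows (57.9%) and in 32.7% of 32851 mouse promoter windows of the same length. A CCAAT box was in 13 (34.2%) against 33.8% of all windows. These are counts of letters and say nothing of which factor was bound. Windows with both boxes and with neither were found among the called collagens of C6KO BAT that had a window.

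Levels of different collagens were compared per length, in TPM, the deposited counts divided by the deposited gene length and scaled to the same total in each library. In WT mice Col3a1, the chain of fibrillar type III collagen, had the highest mean in every depot. It reached 1690 ± 312 TPM (SD, n = 3) in eWAT, 1170 ± 31.3 in iWAT and 223 ± 42.4 in BAT. The next ranks depended on the depot. In iWAT the basement membrane chains Col4a1 (884 ± 51.5 TPM) and Col4a2 (667 ± 37.9 TPM) came before the type I chains Col1a2 (578 ± 19 TPM) and Col1a1 (533 ± 10.7 TPM). In eWAT Col1a2 (814 ± 148 TPM) came before Col4a1 (626 ± 32.4 TPM) and Col1a1 (619 ± 127 TPM), and these neighbours lay within 1 SD of each other or close to it. In BAT the second and the third rank were again held by Col4a1 (199 ± 40.7 TPM) and Col4a2 (151 ± 29.1 TPM), and Col1a2 (105 ± 45.7 TPM) was within their spread. Col3a1 and Col4a1 were within 1 SD of each other in BAT, and Col4a1 was the higher of them in WT-3 (Col3a1 to Col4a1 TPM ratio 0.914). The type VI chains Col6a1 and Col6a2 followed in each depot, at 329 ± 12.6 and 403 ± 8.86 TPM in iWAT and 560 ± 46.7 and 589 ± 42.5 TPM in eWAT.

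**Figure D1:**
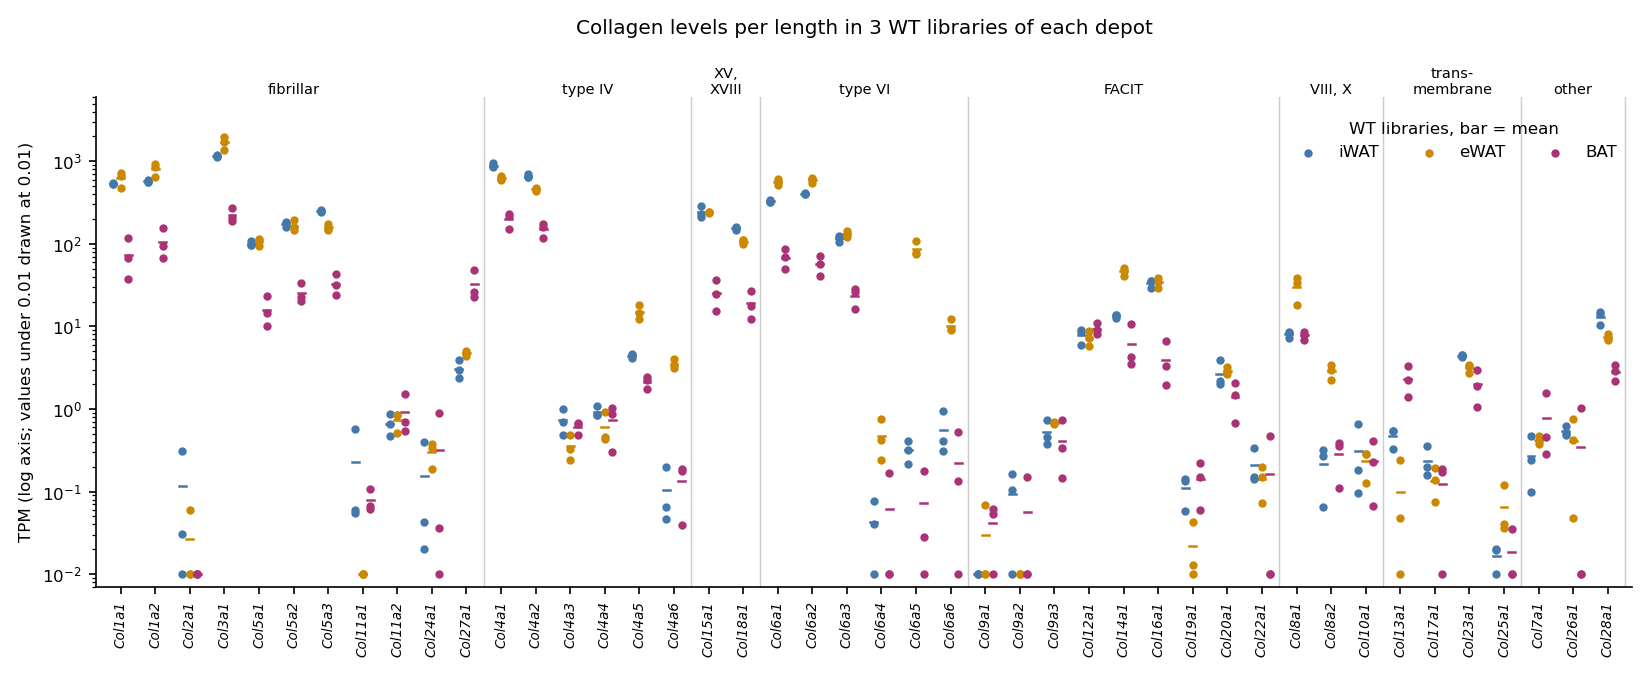
TPM of each of the 44 collagens (x axis, grouped by class) on a log axis in the 3 WT libraries each of iWAT, eWAT and BAT, with a bar at the mean and values under 0.01 drawn at 0.01. Col3a1 has the highest mean in every depot, most abundant chains lie lower in BAT than in the white depots, Col27a1 lies higher in BAT, and Col6a5, Col6a6, Col4a6 and Col8a2 lie higher in eWAT than in iWAT.

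Type V and the multiplexins stood below these, from Col5a3 at 249 ± 8.21 and Col15a1 at 243 ± 40 TPM down to Col5a1 at 99.8 ± 6.51 TPM in iWAT. The FACIT, network, transmembrane and other collagens were low. Col16a1, a FACIT collagen, was the highest of them in iWAT at 33.5 ± 3.74 TPM, and Col14a1, a FACIT collagen that binds fibrils, in eWAT at 46.5 ± 5.05 TPM. The cartilage collagens Col2a1, Col9a1, Col9a2 and Col11a1 had mean levels of at most 0.231 TPM in WT of any depot. At these levels a difference was not detectable. A filter on low counts left 28 collagens for testing in BAT, 30 in iWAT and 34 in eWAT, with 27 tested in all 3 depots and 9 in none. A member could pass through the group in which it was high, so the counts below describe the tested collagens and not all 44. Col25a1, a transmembrane collagen that lies 267 kb from Casp6, was among those not tested.

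The class sums showed how much of the collagen transcript pool each type made up. In WT the 44 collagens together summed to 6530 ± 781 TPM in eWAT, 5700 ± 180 in iWAT and 1090 ± 273 in BAT. They took 1.49% of all counts in eWAT, 1.32% in iWAT and 0.29% in BAT. Fibrillar collagens were 54.6% of collagen TPM in WT eWAT, 49.3% in iWAT and 46.7% in BAT, and type IV chains were 16.9%, 27.3% and 32.4% in this order. BAT thus had both the least collagen transcript and, of the 3, the largest type IV share.

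In C6KO the collagen sum was 5450 ± 390 TPM in eWAT, 3330 ± 571 in iWAT and 661 ± 103 in BAT. The sums did not overlap between genotypes in iWAT, where WT ran from 5520 to 5880 and C6KO from 2740 to 3880, or in BAT, where WT ran from 807 to 1350 and C6KO from 591 to 779. In eWAT they did, since C6KO-2 (5760) lay above WT-2 (5700). Fibrillar collagens carried most of the gap. Their sum was 2810 ± 52.9 in WT and 1360 ± 396 TPM in C6KO iWAT. It was 3560 ± 623 and 2710 ± 194 for eWAT, and 510 ± 151 and 225 ± 34 for BAT. Type IV was close between genotypes in BAT (354 ± 70.1 and 310 ± 42.5 TPM) and in eWAT (1110 ± 50.3 and 1200 ± 155), with overlapping libraries. In iWAT it was 1560 ± 90.7 in WT and 1210 ± 287 in C6KO. There only WT-1 and C6KO-1 met, at 1490 TPM each as rounded. As a share of all counts type IV did not overlap in iWAT, at 0.394% to 0.426% in WT and 0.243% to 0.378% in C6KO. The type IV share of collagen TPM was therefore 46.8% in C6KO BAT, 36.2% in iWAT and 22% in eWAT, each above its WT share given above. These sums are dominated by a few abundant chains and carry no test.

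**Figure D2:**
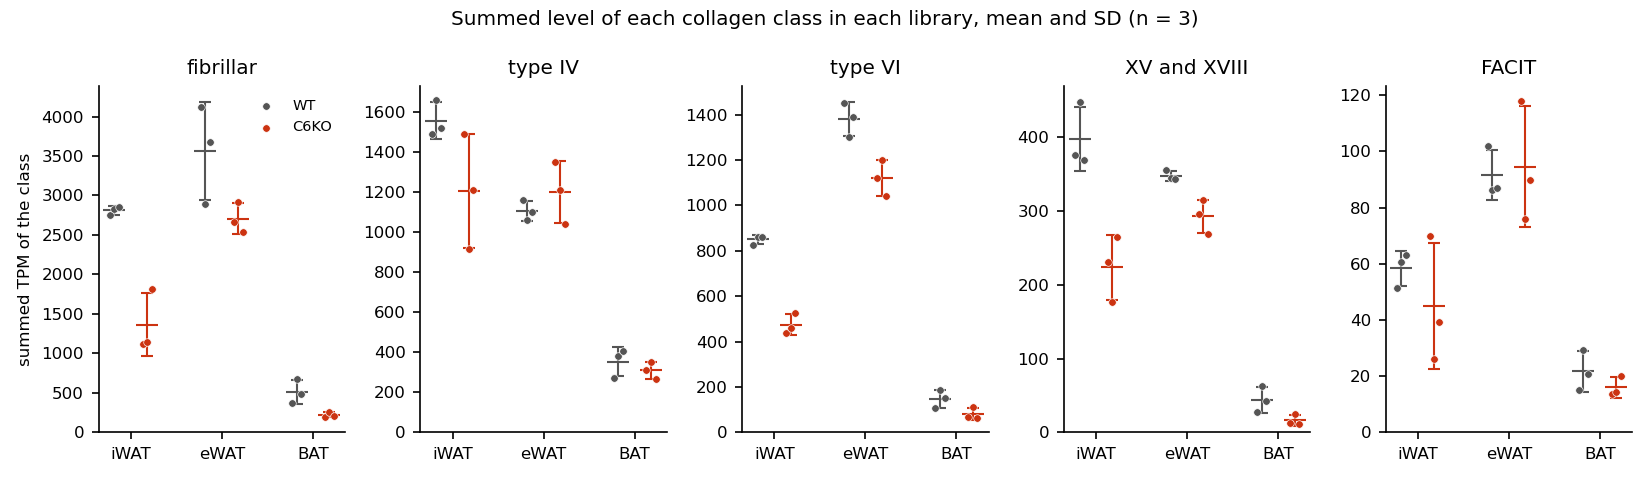
Summed TPM (y axis, from 0) of 5 collagen classes in each WT (grey) and C6KO (red) library of iWAT, eWAT and BAT, with the mean and SD of 3 libraries. The mean fibrillar, type VI and XV and XVIII sums are lower in C6KO in every depot, and in eWAT the fibrillar sums of the genotypes overlap. Type IV sums of the genotypes overlap in eWAT and BAT, and in iWAT they meet only at WT-1 and C6KO-1, both at 1490 as rounded.

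The first question was how the collagens differ between depots of WT mice. All depot contrasts came from 1 fit of all 18 libraries. It covered the 14175 genes that were counted on the same transcript in the 3 tables and passed the filter on low counts. Of these, 35 were collagens. A gene was called when edgeR's quasi-likelihood test gave a Benjamini-Hochberg adjusted p below 0.05 and the levels differed at least 1.5-fold. The 3 contrasts share their WT libraries, so each is given by its own values.

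BAT held less of most collagens than either white depot. Against iWAT, 18 of the 35 tested collagens were lower and 3 higher in BAT, beside 18.8% and 20.0% of all genes. Against eWAT, 21 were lower and 3 higher, beside 23.7% and 24.9% of all genes. The median log2 difference of the tested collagens was -0.88 against iWAT and -1.87 against eWAT, while the median of all genes was 0.01 and 0.02. Without BAT WT-2 the median against iWAT was -2.01, and with a minimum of 10 counts in every library it was -2.09 over 21 collagens. Col15a1 (log2 -2.98, SE 0.355, adjusted p = 5.7e-06), Col18a1 (-2.73, SE 0.183, adjusted p = 5.54e-09), Col5a3 and Col1a1 were lowest in BAT relative to iWAT among the abundant chains. Col4a1 and Col4a2 were lower by less, at log2 -1.85 each. Cell type markers moved with this contrast. Of 8 fibroblast markers 5 were called lower in BAT than in iWAT and 6 lower than in eWAT, and of 7 macrophage markers 6 and 7, while 5 of 5 tested skeletal muscle markers were called higher in BAT than in either. Their part in the collagen values was not tested.

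Col27a1 went the other way. This fibrillar collagen, known from cartilage, was at 85.4, 84 and 156 CPM in the 3 WT BAT libraries, at 11.9, 8.57 and 7 CPM in iWAT and at 15.3, 14.9 and 13.1 CPM in eWAT. No BAT library overlapped the white depots, and its log2 difference was 3.68 (SE 0.266, adjusted p = 1.84e-08) against iWAT and 3.17 (SE 0.259, adjusted p = 2.74e-08) against eWAT. Per length it was the ninth collagen of WT BAT at 32.3 ± 14.1 TPM. Col13a1, a transmembrane collagen of cell contacts, was higher in BAT too, at 2.2, 3 and 4.4 CPM against 0.412 to 0.667 in iWAT and at most 0.292 in eWAT.

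The white depots differed less from each other. Of the 35 tested collagens 5 were lower and 8 higher in eWAT than in iWAT, beside 12.9% and 12.9% of all genes. The median difference was -0.03 over the tested collagens and 0 over all genes. Basement membrane chains did not share a direction. Col4a1, Col4a2 and Col18a1 were called lower, Col4a6 was called higher, and Col15a1 was not called (log2 -0.14). The log2 difference was -0.62 for Col4a1 (SE 0.16, adjusted p = 0.00714), -0.66 for Col4a2 (SE 0.191, adjusted p = 0.0135) and -0.65 for Col18a1 (SE 0.17, adjusted p = 0.0075). Col5a3 (-0.76, SE 0.207, adjusted p = 0.00936) and Col13a1 (-2.38, SE 0.826, adjusted p = 0.0356) were the others. The higher side held 4 of the 6 type VI chains. Col6a1 was higher by only 0.65 (SE 0.163), but Col6a5, a long type VI chain, was at 278, 403 and 282 CPM in eWAT and at 1.18, 0.763 and 1.5 CPM in iWAT. Its log2 difference was 7.97 (SE 0.428, adjusted p = 7.34e-08), and in BAT it was at most 0.705 CPM. The neighbouring genes Col6a6 (log2 4.07, SE 0.527) and Col6a4 (3.35, SE 1.1) lie beside Col6a5 on chromosome 9, between 105689417 and 106096691 of mm10, and were higher in eWAT as well. Col6a4 was low in both, with a mean of 1.37 CPM in WT eWAT and 0.113 CPM in WT iWAT. Col4a6, a minor basement membrane chain, was at 10.7, 9.18 and 8.05 CPM in eWAT and 0.53, 0.117 and 0.167 CPM in iWAT. The network chains Col8a1 (log2 1.77) and Col8a2 (3.59) and the FACIT chain Col14a1 (1.68) completed the list of those higher in eWAT. The summed CPM of 5 mesothelial markers moved with them, at 122 to 201 in WT eWAT, 1.47 to 2.89 in WT iWAT and 1.06 to 1.2 in WT BAT, with 1 marker at 0 in all WT iWAT libraries and 2 in all WT BAT libraries. Other lists differed between these depots too: 7 of 7 macrophage markers (median log2 1.81) and 4 of 8 fibroblast markers were called higher in eWAT, and 6 of 6 adipocyte, 5 of 6 endothelial and 4 of 7 pericyte and smooth muscle markers lower. The part of these cells in the result was not tested. With a minimum of 10 counts in every library, 21 collagens were tested and 6 called. Of the 7 that lost the call 6 were not tested under this minimum: Col6a4, Col6a5, Col6a6, Col4a6, Col8a2 and Col13a1. Col4a1 was at -0.57, below the fold minimum. With libraries scaled by total counts the split was 2 lower and 8 higher.

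The second question was how the collagens of C6KO mice differed from those of WT mice on HFD. The paper reports that HFD-fed C6KO mice weighed less, carried less fat mass and had lighter iWAT, eWAT and BAT than WT. Genotype and this lower adiposity cannot be told apart here. In iWAT most collagens were lower in C6KO, though none passed the adjusted threshold in edgeR's test. edgeR called 0 of 30 tested collagens lower and 0 higher, when 0.0206% and 0.00688% of all genes were called. Before adjustment, 11 collagens had p below 0.05 and a level lower by 1.5-fold or more and 1 a level as much higher, beside 6.72% and 2.61% of all genes. DESeq2, which the paper used for its own comparisons, called 11 lower and 1 higher at the same thresholds, beside 3.53% and 1.18%. The libraries of the genotypes did not overlap for 13 collagens that were lower, beside 12.2% of all genes. They did not overlap for 1 that was higher, beside 1587 of all 14533 genes. The median log2 difference of the tested collagens was -0.58, and that of all genes 0.03.

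Col3a1 was at 2520, 2490 and 2600 CPM in WT iWAT and at 730, 887 and 1640 CPM in C6KO-1 to C6KO-3. C6KO-3 stood between the other C6KO libraries and WT, and it was also the C6KO library with the most macrophage marker counts. The log2 difference was -1.22 (SE 0.283), with an adjusted p of 0.154 in edgeR's test. The type I chains behaved alike. Col1a1 was at 1250, 1240 and 1210 CPM in WT and 589, 559 and 786 CPM in C6KO (log2 -0.93, SE 0.167, edgeR adjusted p = 0.121). Col1a2 was at 1170, 1130 and 1220 CPM in WT and 419, 609 and 821 CPM in C6KO (log2 -0.93, SE 0.229, edgeR adjusted p = 0.159). In each the WT libraries lay close together and the C6KO libraries lay apart below them, with C6KO-3 nearest to WT.

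The type V chains, which sit inside type I fibrils and set their width, were lower as well. Col5a1 was at 322, 346 and 313 CPM in WT and 190, 169 and 232 CPM in C6KO, and Col5a2 at 416, 456 and 471 against 321, 210 and 337 CPM. Col5a3 was at 606, 597 and 568 CPM in WT and 485, 299 and 504 CPM in C6KO. None of the 3 overlapped between genotypes, and their log2 differences were -0.73, -0.63 and -0.46 with edgeR adjusted p-values of 0.145, 0.184 and 0.296. The 3 main type VI chains did not overlap either. Col6a1 was at 509, 490 and 531 CPM in WT and 260, 321 and 313 CPM in C6KO (log2 -0.78, SE 0.137, edgeR adjusted p = 0.121). Col6a2 was at 590, 591 and 577 CPM in WT and 362, 291 and 399 CPM in C6KO, and Col6a3 at 457, 525 and 504 against 203, 318 and 332 CPM, with log2 differences of -0.74 and -0.80.

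The FACIT chain Col14a1 had the smallest adjusted p of the collagens in iWAT. It was at 32.4, 34.1 and 34.5 CPM in WT and 10, 15.5 and 15.9 CPM in C6KO, a log2 difference of -1.29 (SE 0.186, edgeR adjusted p = 0.0853) with no overlap. The most negative log2 difference was that of Col4a5, a minor basement membrane chain, at 10.7, 11.7 and 11.3 CPM in WT and 1.96, 2.84 and 7.25 CPM in C6KO (log2 -1.48, SE 0.431, edgeR adjusted p = 0.184). The multiplexins were lower too. Col15a1 was at 481, 589 and 442 CPM in WT and 285, 197 and 343 CPM in C6KO, and Col18a1, whose end is cleaved to endostatin, at 331, 341 and 341 against 232, 200 and 246 CPM. Their log2 differences were -0.87 and -0.58.

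The main basement membrane chains overlapped between genotypes. Col4a1 was at 2220, 2390 and 2220 CPM in WT iWAT and 2240, 1520 and 1860 CPM in C6KO, with a log2 difference of -0.28 and a 95% interval of -0.77 to 0.21. Col4a2 was at 1630, 1760 and 1640 CPM in WT and 1790, 939 and 1360 CPM in C6KO, with -0.30 and an interval of -0.92 to 0.32. C6KO-1 lay within the WT range for Col4a1 and above it for Col4a2, so the intervals leave room for a lower level of moderate size as well as for none. On the higher side stood Col13a1, at 0.412, 0.645 and 0.667 CPM in WT and 1.34, 2.24 and 2.26 CPM in C6KO (log2 1.75, SE 0.47, edgeR adjusted p = 0.166), and the FACIT chain Col20a1, at 3.59, 3.23 and 6.34 against 5.77, 6.01 and 3.79 CPM with overlap.

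**Figure D3:**
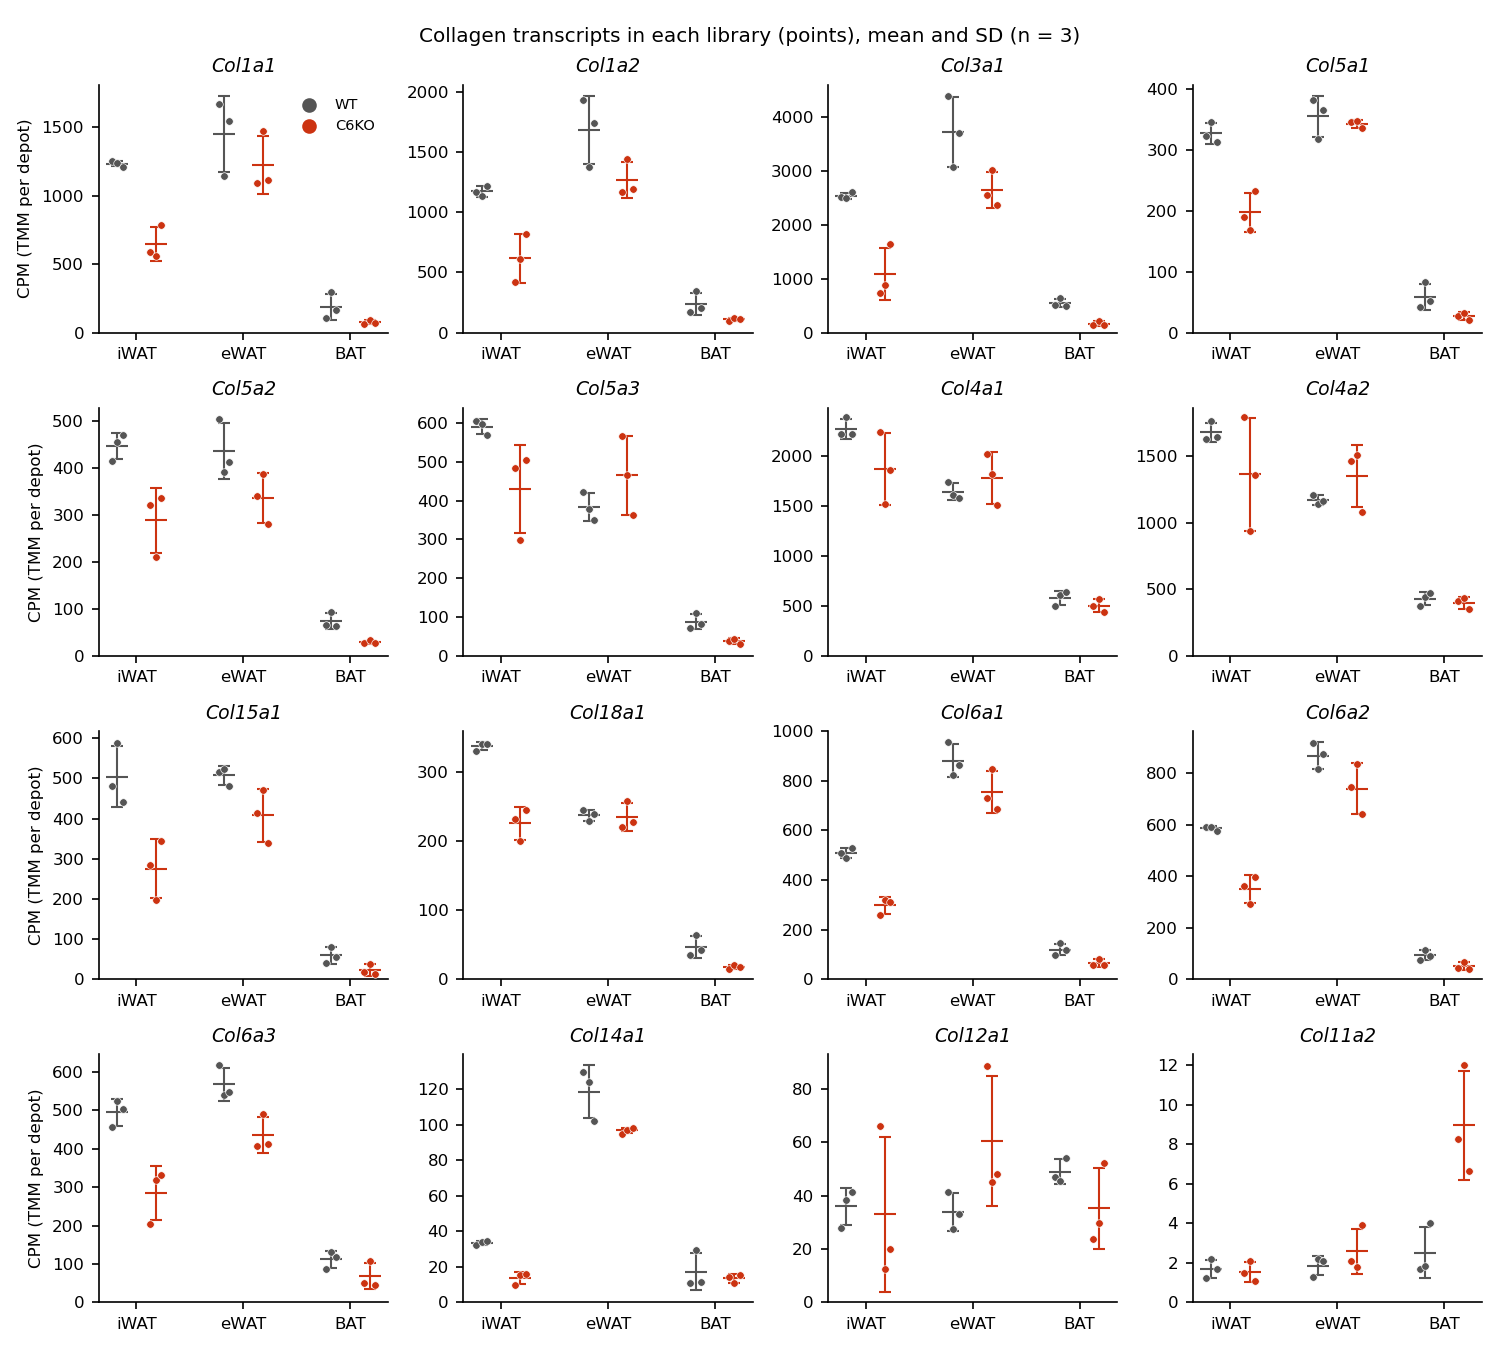
CPM (y axis, from 0, TMM-scaled within a depot) of 16 collagens in each WT (grey) and C6KO (red) library of iWAT, eWAT and BAT, with the mean and SD of 3 libraries. In BAT the Col3a1 libraries run from 488 to 637 in WT and from 142 to 215 in C6KO, while the Col4a1 libraries of the genotypes overlap in every depot.

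The iWAT result rested on C6KO-3. Without this library edgeR called 13 of 32 tested collagens lower, among them Col3a1 (log2 -1.67, adjusted p = 0.000561), Col1a1 (-1.12, 0.00197), Col14a1 (-1.42, 0.00337), Col4a5 (-2.24, 0.00128) and Col6a2 (-0.87, 0.00897), and 1278 genes in all. Col4a1 and Col4a2 remained uncalled without it, at log2 -0.30 and -0.32. Marker sums differed between the genotypes too. All 7 macrophage markers were lower in C6KO without overlap, though edgeR called 0 of them, with 6 at an unadjusted p below 0.05 and 3 called by DESeq2. The summed CPM of 8 fibroblast and progenitor markers was 2450 to 2550 in WT and 1520 to 2400 in C6KO, and that of 6 adipocyte markers 21300 to 24800 in WT and 28200 to 29900 in C6KO. The part of cell composition in the collagen differences was not tested.

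In eWAT the collagens were closer between genotypes. edgeR called 0 of 34 tested collagens lower and 0 higher, beside 0.208% and 0.537% of all genes. By the same unadjusted rule 2 were lower and 3 higher, beside 2.79% and 4.20%. DESeq2 called 2 lower, Col6a5 and Col8a1, and 1 higher, Col12a1, beside 1.22% and 2.77%. The libraries did not overlap for 7 collagens that were lower, beside 11.2% of all genes, and for 2 that were higher, beside 1787 of all 14889 genes. The median log2 difference was -0.23, against -0.01 for all genes.

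Col3a1 was at 4390, 3080 and 3700 CPM in WT eWAT and at 2550, 3020 and 2360 CPM in C6KO. The groups did not overlap, but C6KO-2 lay just under WT-2, and the log2 difference was -0.49 (SE 0.169, edgeR adjusted p = 0.167). Col1a1 was at 1670, 1140 and 1540 CPM in WT and 1090, 1470 and 1110 CPM in C6KO, and Col1a2 at 1930, 1370 and 1740 against 1170, 1440 and 1190 CPM. Both type I chains overlapped through WT-2 and C6KO-2, with log2 differences of -0.25 and -0.41. The type V chains did not share a direction, at log2 -0.05 for Col5a1, -0.38 for Col5a2 and 0.28 for Col5a3.

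All 6 type VI chains had values below 0 in eWAT, from log2 -0.61 to -0.22. Col6a5 was at 278, 403 and 282 CPM in WT and 185, 268 and 180 CPM in C6KO, where C6KO-2 came close to the lowest WT library (log2 -0.61, SE 0.2, edgeR adjusted p = 0.163). Col6a3, whose C-terminal end gives the peptide endotrophin, was at 617, 539 and 548 CPM in WT and 408, 491 and 412 CPM in C6KO without overlap (log2 -0.38, SE 0.121, edgeR adjusted p = 0.144). Col6a1 was at 956, 825 and 863 CPM in WT and 731, 848 and 685 CPM in C6KO, and Col6a2 at 917, 815 and 875 against 745, 836 and 641 CPM, with overlap in each.

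Of the 6 type IV chains 3 had values above 0 in eWAT and 3 below, all with overlap. Col4a1 was at 1740, 1610 and 1580 CPM in WT eWAT and 2020, 1820 and 1510 CPM in C6KO (log2 0.12, interval -0.27 to 0.51), and Col4a2 at 1210, 1140 and 1160 against 1460, 1510 and 1080 CPM (0.20, -0.21 to 0.61). C6KO-3 lay below the WT libraries for both chains and the other C6KO libraries above them. Col18a1 was at 245, 229 and 239 CPM in WT and 220, 258 and 228 CPM in C6KO, a log2 difference of -0.01 with a 95% interval of -0.30 to 0.27. Col15a1 was at 517, 524 and 481 CPM in WT and 414, 470 and 339 CPM in C6KO (log2 -0.32).

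The remaining large differences in eWAT concerned low or scattered collagens. Col8a1, a network collagen of vessels, was at 79.3, 37.7 and 66.8 CPM in WT and 31.7, 43.6 and 26.5 CPM in C6KO (log2 -0.85, SE 0.303, edgeR adjusted p = 0.215), and its partner Col8a2 at 5.96, 3.99 and 5.07 against 1.86, 3.38 and 4.06 CPM. Col12a1, a FACIT collagen of tissues under load, was at 41.5, 27.5 and 33 CPM in WT and 88.8, 45.1 and 48.1 CPM in C6KO (log2 0.84, SE 0.289, edgeR adjusted p = 0.2). Every C6KO library exceeded every WT library for Col12a1, and C6KO-1 stood well above the rest. Col24a1 was at 0.945, 0.546 and 1.05 CPM in WT and 0.961, 2.31 and 2.49 CPM in C6KO, and Col9a3 at 0.758 to 0.767 CPM in WT and 0.601, 0.805 and 2.84 CPM in C6KO. Both overlapped and both were within a few CPM of 0. The largest value was that of Col10a1, the network collagen known from growth plate cartilage, at 0.354, 0.164 and 0.35 CPM in WT and 0.841, 0.859 and 1.16 CPM in C6KO without overlap (log2 1.70, SE 0.542, edgeR adjusted p = 0.144), from 3 to 20 counts a library.

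Cell type markers also moved in eWAT. The macrophage sum was 5620 to 6720 CPM in WT and 3800 to 4670 in C6KO, the fibroblast sum 3690 to 4270 and 2970 to 3480, the endothelial sum (6 markers) 582 to 668 and 808 to 951, and the adipocyte sum 9460 to 11300 and 13000 to 16800. Their part in the collagen values was not tested.

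**Figure D4:**
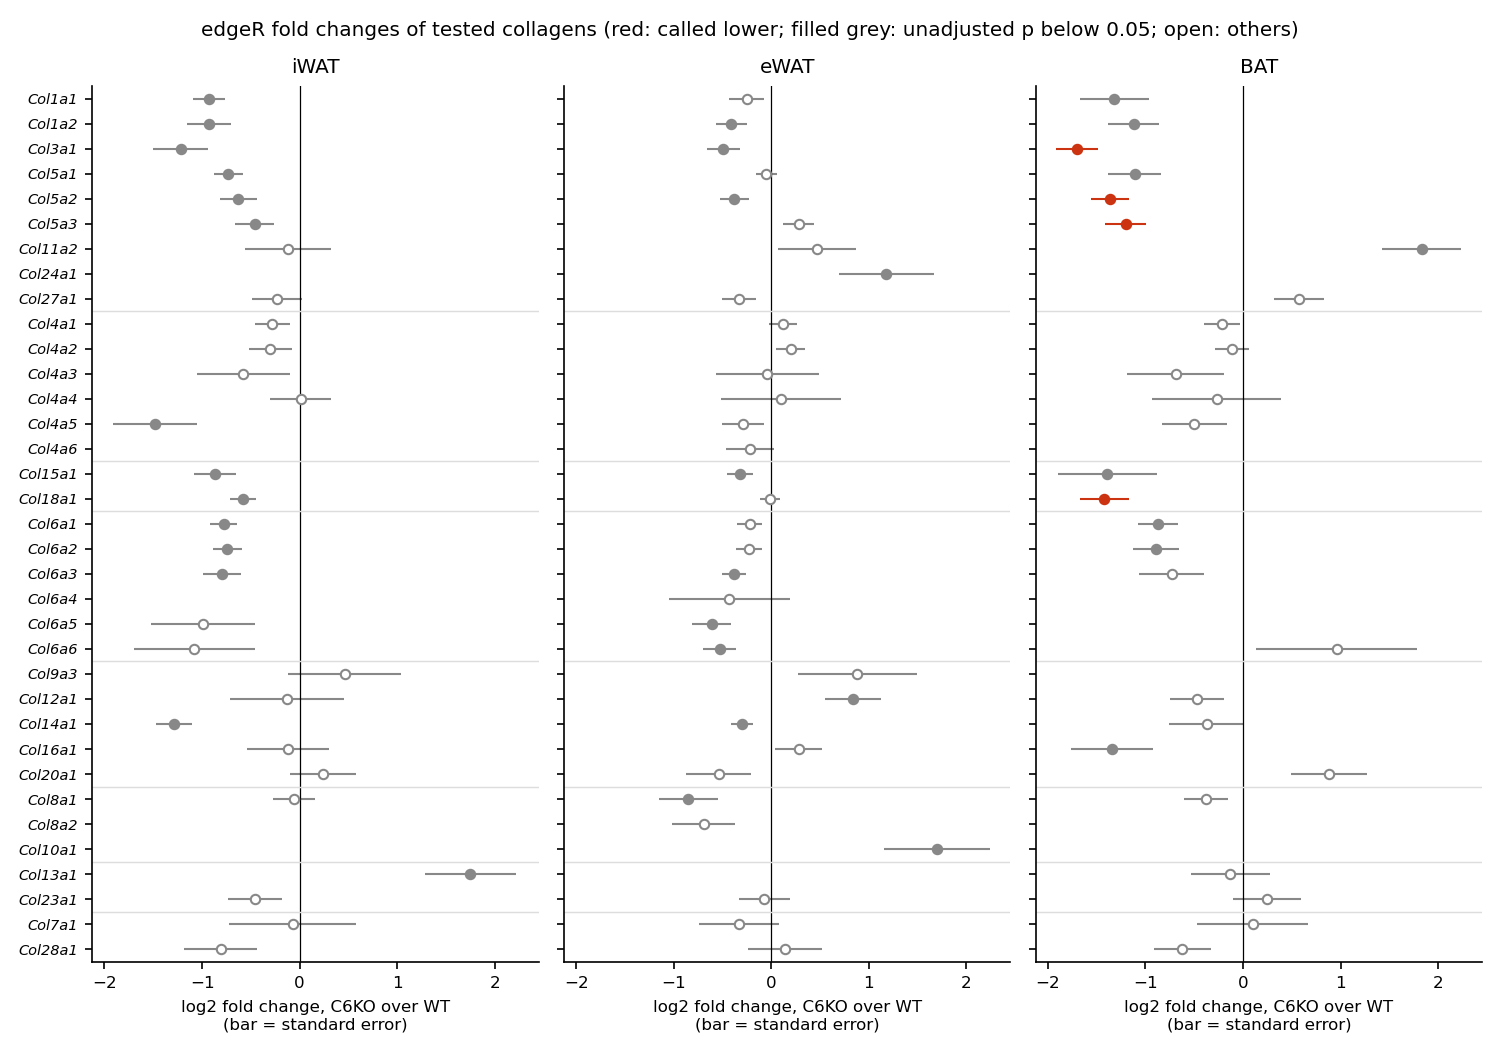
Log2 fold change of C6KO over WT (x axis, with its standard error) for each tested collagen in iWAT, eWAT and BAT, ordered by class, in red where edgeR called it lower, in filled grey where the unadjusted p was below 0.05 and open otherwise. The chains of types I, III, V and VI lie left of 0 in iWAT, Col4a1 and Col4a2 lie near 0 in every depot, and the 4 red points, Col3a1, Col5a2, Col5a3 and Col18a1, are all in BAT.

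In BAT 4 collagens fell in C6KO: Col3a1, Col5a2, Col5a3 and Col18a1. They were 4 of 28 tested collagens, beside 1.07% of all genes called lower, and 0 were called higher, beside 0.169%. By the unadjusted rule 11 collagens were lower and 1 higher, beside 6.27% and 2.62%. DESeq2 called 10 lower and 1 higher, Col11a2, beside 2.62% and 1.05%. The libraries did not overlap for 12 that were lower, beside 12.1% of all genes, and for 2 that were higher, beside 1097 of all 13595 genes. The median log2 difference of the tested collagens was -0.56, and that of all genes -0.03. BAT libraries had the lowest depth and the largest spread, and WT-2 carried by far the most skeletal muscle marker counts, as given above.

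Col3a1 was at 522, 637 and 488 CPM in WT BAT and at 150, 215 and 142 CPM in C6KO. Every C6KO library lay at less than the lowest WT value, by a wide gap, and the log2 difference was -1.70 (SE 0.216, edgeR adjusted p = 0.00972, 95% interval -2.30 to -1.10). Col5a2, whose gene lies next to Col3a1 on chromosome 1, was at 66.2, 94.5 and 63.6 CPM in WT and 27.2, 32.9 and 27.4 CPM in C6KO (log2 -1.36, SE 0.192, edgeR adjusted p = 0.0132). Col5a3 was at 71.9, 110 and 81.9 CPM in WT and 39.6, 44.5 and 30.7 CPM in C6KO (log2 -1.20, SE 0.209, edgeR adjusted p = 0.0314). Col18a1 was at 34.4, 64.3 and 42.1 CPM in WT and 14.7, 20.8 and 17.2 CPM in C6KO (log2 -1.42, SE 0.25, edgeR adjusted p = 0.0318). In Col5a2, Col5a3 and Col18a1 WT-2 was the highest library, and no C6KO library reached the lowest WT value.

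The type I chains were lower without passing the threshold. Col1a1 was at 110, 295 and 166 CPM in WT and 66.7, 92.6 and 68.9 CPM in C6KO (log2 -1.32, SE 0.353, edgeR adjusted p = 0.15), and Col1a2 at 172, 344 and 205 against 93.4, 122 and 116 CPM (-1.12, SE 0.26, edgeR adjusted p = 0.0869). The WT spread of these chains was wide and set by WT-2. Col5a1 was at 42.5, 82.5 and 51.1 CPM in WT and 27.8, 32.7 and 20.8 CPM in C6KO (log2 -1.11). Col15a1, at 40.7, 81.1 and 55.3 against 16.8, 38.7 and 11.9 CPM, did not overlap either (log2 -1.39).

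Of the type VI chains, Col6a1 was at 98, 144 and 116 CPM in WT and 56.4, 82 and 57.1 CPM in C6KO (log2 -0.87, SE 0.207, edgeR adjusted p = 0.0904), and Col6a2 at 75.3, 113 and 89.7 against 45.1, 67.2 and 37.8 CPM (-0.89). Col6a3 was at 87.6, 131 and 119 CPM in WT and 51.1, 107 and 46.4 CPM in C6KO and overlapped, because C6KO-2 was high. Type IV was again close, with Col4a1 at 502, 610 and 636 CPM in WT and 500, 573 and 442 CPM in C6KO (log2 -0.21, interval -0.72 to 0.30) and Col4a2 at 378, 442 and 472 against 414, 431 and 349 CPM (-0.11, -0.60 to 0.37). Col11a2, a fibrillar chain best known from cartilage, was higher in C6KO, at 8.28, 12 and 6.62 CPM against 1.68, 1.85 and 4 CPM in WT (log2 1.83, SE 0.406, edgeR adjusted p = 0.0727). Col6a6 was at 0, 1.59 and 0.4 CPM in WT and 1.18, 1.49 and 1.46 CPM in C6KO, with overlap.

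The BAT calls rested on all C6KO libraries. With all 6 BAT libraries edgeR called 168 genes in all. Without C6KO-1 or without C6KO-3 0 collagens were called, of 37 and 28 genes called in all, and Col3a1 was at log2 -1.59 in each. Without C6KO-2 only Col3a1 was called (log2 -1.88, edgeR adjusted p = 0.0265), of 29 genes in all. Without WT-2, the library rich in muscle transcripts, all 4 were still called, of 178 genes in all. Their log2 differences were -1.57 for Col3a1, -1.15 for Col5a2, -1 for Col5a3 and -1.12 for Col18a1. Without WT-3 Col3a1 and Col5a2 were called lower and Col11a2 higher (2.38, edgeR adjusted p = 0.0467), of 91 genes in all. With the 3 libraries of the highest muscle sums left out together (WT-2, C6KO-1 and C6KO-3), a choice made after the values were seen, only Col18a1 was called (log2 -0.92, adjusted p = 0.0452), Col3a1 was at -1.28 (adjusted p = 0.155), Col5a2 at -1.02 and Col5a3 at -0.83, and the median over the collagens was -0.14. This was a fit of all depots, and the same kind of fit with all 18 libraries called 10 collagens lower in BAT, of 479 genes called in all, with a median of -0.64. The fit without the 3 leaves a lone C6KO library in BAT, which is assumed to vary like the other groups. The 7 muscle markers themselves all had lower values in C6KO BAT, with a median log2 difference of -1.72 (-2.25 to -1.04). With sums as scattered as those given above, 0 of them were called by edgeR or DESeq2 and 0 had an unadjusted p below 0.05. Macrophage markers were lower in C6KO too, with 4 of 7 called lower. Their sums were 563 to 715 CPM in WT and 186 to 302 in C6KO. Within a genotype the libraries were not in the order of the collagen sums. WT-2 had the lowest WT macrophage sum (563 CPM) and the highest WT collagen sum (1350 TPM). C6KO-2 had the lowest C6KO macrophage sum (186 CPM) and the highest C6KO collagen sum (779 TPM). The fibroblast sum was 736 to 1330 in WT and 621 to 922 in C6KO, with Lum, a fibril-binding proteoglycan, called lower (log2 -1.14, edgeR adjusted p = 0.0249). The part of these cells in the collagen values was not tested.

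Whether the C6KO difference itself differed between depots was tested by the interaction of genotype and depot in the fit of 18 libraries. For eWAT minus iWAT edgeR called 0 of 35 collagens, beside 0% of all genes lower and 0% higher. At an unadjusted p below 0.05 there were 6, beside 5.39%, and DESeq2 called 0, beside 0.00552%. For BAT minus iWAT edgeR called 0, beside 0.134% lower and 0.0776% higher, with 7 at an unadjusted p below 0.05, beside 9.90%, and 0 by DESeq2, beside 1.27%. For BAT minus eWAT 2 collagens differed in the lower direction, Col18a1 and Col5a3, beside 0.536% of all genes lower and 0.0705% higher. At an unadjusted p below 0.05 there were 13, beside 11.3%, and DESeq2 called 5, beside 2.64%. The Col18a1 difference was -1.40 on the log2 scale (SE 0.247, edgeR adjusted p = 0.0136) and that of Col5a3 -1.47 (SE 0.296, edgeR adjusted p = 0.0293). In eWAT Col18a1 had differed by -0.01 and Col5a3 by 0.28, and in BAT by -1.42 and -1.20. With each of the 12 eWAT and BAT libraries left out in turn, Col18a1 lost its call only without eWAT WT-2 (adjusted p = 0.054), and Col5a3 kept its call without eWAT C6KO-3, BAT WT-1, BAT WT-3 or BAT C6KO-2 and lost it without each of the other 8, at adjusted p-values of 0.0528 to 0.0941. The Col3a1 interaction of BAT and eWAT was -1.20 (SE 0.352, edgeR adjusted p = 0.148), so a larger loss in BAT than in eWAT was not shown for it.

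Ratios of chains within a library do not depend on library size and were compared with an exact permutation test, two-sided, over 27 ratio and depot pairs. With 3 libraries against 3 the exact permutation test cannot go below p = 0.1, so no ratio could pass 0.05, and 13 of the 27 reached that lowest value, where the Benjamini-Hochberg adjusted p was 0.208. The Col4a1 to Col4a2 ratio lay between 1.18 and 1.58 in all 18 libraries and overlapped between genotypes in each depot, and Col6a1 to Col6a2 also overlapped in each. Other partner chains did not in eWAT, where the mean log2 ratio of C6KO minus WT was 0.16 for Col1a1 to Col1a2, 0.33 for Col5a1 to Col5a2 and -0.15 for Col6a3 to Col6a1 (exact permutation p = 0.1 each). These 3 ratios overlapped between genotypes in iWAT and BAT.

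The ratios of Col3a1 and Col1a2 to the basement membrane chain Col4a1 were lower in C6KO libraries in every depot. The Col3a1 to Col4a1 TPM ratio was 1.35, 1.24 and 1.39 in WT iWAT and 0.388, 0.694 and 1.05 in C6KO. In eWAT it was 3, 2.27 and 2.8 against 1.5, 1.97 and 1.86, and in BAT 1.24, 1.24 and 0.914 against 0.358, 0.446 and 0.383. Libraries of the genotypes did not overlap in any depot, and the mean log2 ratio differed by -1.02, -0.60 and -1.51 (exact permutation p = 0.1 each). Col1a2 to Col4a1 gave the same order, with differences of -0.69, -0.51 and -0.86 and no overlap (exact permutation p = 0.1 each). Col3a1 was lower even relative to Col1a2 in iWAT (-0.33) and BAT (-0.65) without overlap, and in eWAT the ratio overlapped (-0.09). The Col4a1 and Col4a2 genes lie head to head on chromosome 8 and overlap at their starts, where reads without strand information could count for both.

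**Figure D5:**
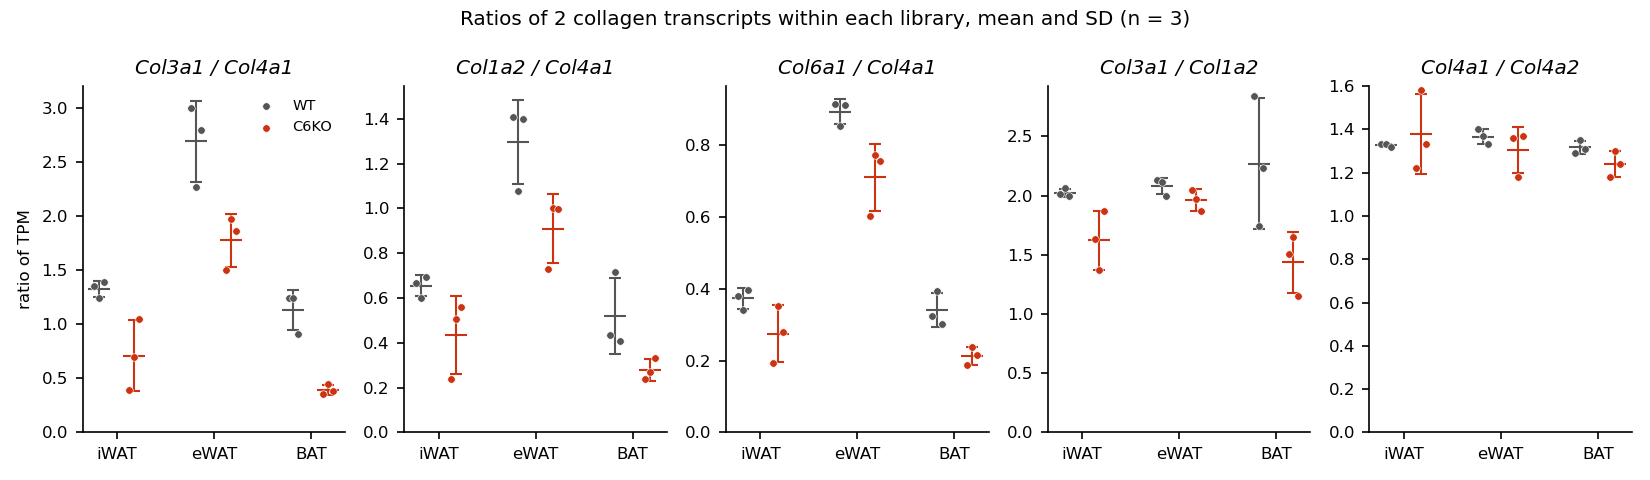
Ratios of the TPM of 2 collagens (y axis, from 0) in each WT (grey) and C6KO (red) library of iWAT, eWAT and BAT, with the mean and SD of 3 libraries. Col3a1 to Col4a1 and Col1a2 to Col4a1 are lower in every C6KO library than in any WT library of the same depot, while Col4a1 to Col4a2 stays between 1.18 and 1.58.

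The enzymes and partners that act on collagen were read from lists drawn up for this purpose. The share of all tested genes with an unadjusted p below 0.05, in either direction, was 13.2% in BAT, 16.5% in iWAT and 17.6% in eWAT. The unadjusted counts of these lists stand beside those shares. Of 15 genes that process or cross-link procollagen, BAT had 2 called lower and 0 higher of 13 tested, with a list median of -0.67. At an unadjusted p below 0.05 there 6 were lower and 1 higher, and DESeq2 called 3 lower, Pcolce, Lox and Sparc (log2 -0.68). Pcolce, which enhances C-propeptide cleavage, was at 222, 145 and 196 CPM in WT BAT and 73.4, 63 and 73.3 CPM in C6KO (log2 -1.42, SE 0.188, edgeR adjusted p = 0.0104). Lox, which starts the cross-linking of fibrils, was at 145, 125 and 102 CPM in WT and 67.3, 46.8 and 60.8 CPM in C6KO (log2 -1.09, SE 0.193, edgeR adjusted p = 0.0324). Neither overlapped between genotypes, and Lox had values on the other side in eWAT (log2 0.61, edgeR adjusted p = 0.179). In iWAT 0 of 14 were called by edgeR and 4 lower by DESeq2, among them Pcolce (log2 -0.67) and Bmp1, the C-proteinase (-0.58). At an unadjusted p below 0.05 there 6 were lower and 0 higher. In eWAT 0 of 14 were called by edgeR and 1, on the higher side, by DESeq2. At an unadjusted p below 0.05 there 1 was lower and 3 higher.

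Folding and modification enzymes, including prolyl and lysyl hydroxylases and the chaperone Serpinh1, had medians near 0. Their median log2 difference was 0.09 in eWAT, -0.03 in BAT and -0.11 in iWAT, with 19 tested in each depot and 0 called by edgeR or DESeq2. In this order 1, 5 and 3 were lower and 1, 0 and 0 higher at an unadjusted p below 0.05. Serpinh1 was at log2 -0.01 in BAT (SE 0.471) with C6KO-2 above every other library. Collagen receptors had 0 of 11 called by edgeR in each depot, with medians of -0.43 for iWAT, 0 for eWAT and -0.26 for BAT, 1 called lower by DESeq2 in each, and in the same order 6, 4 and 4 at an unadjusted p below 0.05. Laminins and nidogens, the partners of type IV in the basement membrane, had 0 called by edgeR in each depot. In the order iWAT, eWAT and BAT, DESeq2 called 1, 0 and 1 of them lower and 0, 1 and 1 higher. At an unadjusted p below 0.05, 1, 3 and 3 were lower and 1, 4 and 2 higher. Their medians were 0.04, 0.28 and 0.13, beside -0.30, 0.03 and -0.27 for the tested type IV chains.

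Of 20 profibrotic signalling and matrix genes, Tnc, the matrix glycoprotein tenascin-C, was called lower in BAT, at 14.9, 16.3 and 11.7 CPM in WT and 4.38, 4.39 and 2.73 CPM in C6KO (log2 -1.90, SE 0.27, edgeR adjusted p = 0.0132). It was 1 of 19 tested there, of which 9 were lower at an unadjusted p below 0.05 and DESeq2 called 3 lower, among them Tnc and Thbs1 (log2 -0.99). In eWAT 0 of 20 were called by edgeR and 7 had an unadjusted p below 0.05, while DESeq2 called 4 higher, among them Thbs1 (log2 1.48), Tnc (0.77) and Smad7 (0.89). In iWAT 0 of 20 were called by edgeR, 6 had an unadjusted p below 0.05, and DESeq2 called 2 lower, Fn1 (log2 -0.79) and Timp1 (-1.34). Tgfb1, the ligand that drives collagen transcription, was at 101, 88.9 and 95.9 CPM in WT iWAT and 69.5, 44.8 and 74.5 CPM in C6KO (log2 -0.60, edgeR adjusted p = 0.193). The groups did not overlap, and the difference did not pass the threshold.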

How the data were processed

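The authors aligned reads to mm10 with STAR and counted them over exons with HOMER, 1 condensed transcript per gene, and the deposited tables hold raw counts per gene and library. Versions, the annotation release and the use of strand are not given in the sources used here. The deposited fold changes and p-values of the authors' own comparisons were not used. Samples were grouped by their labels. The members and gene lists were chosen with earlier results of these data known: members by symbol, and values in every library for types I, III to VI, XV and XVIII, any other collagen called between genotypes and the 2 largest increases and decreases of a depot at 1 CPM or more.

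Genes passing filterByExpr were tested in each depot with edgeR 4.0.16 (R 4.3.3, limma 3.58.1), using TMM scaling and the robust quasi-likelihood test, with Benjamini-Hochberg adjustment over all tested genes. Depots and interactions were tested in 1 fit of 18 libraries over genes with the same transcript in the 3 tables (38 collagens have it and 6 do not). CPM values are TMM-scaled within a depot, and TPM values were computed from the counts and the deposited lengths. BAT values are the least precise, with a common biological coefficient of variation of 0.32 (iWAT 0.216, eWAT 0.191). The edgeR and DESeq2 steps were tested on simulated counts with known changes. Alternatives were DESeq2 1.42.0, other scalings, other filters, a replicate block, all libraries in 1 fit and leaving out each library. Same-numbered libraries of different groups did not deviate together in every pair, so no pairing was used. Figures were drawn with matplotlib 3.10.9. 1 gene of the profibrotic list is not reported here by name.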

Additional observations from a re-analysis of the deposited data

Results flagged for a closer look

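The difference between C6KO and WT differed between BAT and eWAT for 2 collagens, by the interaction of genotype and depot in edgeR's quasi-likelihood test. For Col18a1, a multiplexin of the basement membrane zone, the BAT minus eWAT difference was -1.4 on the log2 scale (adjusted p = 0.0136), and it was lower in C6KO in every BAT library. For Col5a3, a type V chain, it was -1.47 (adjusted p = 0.0293). The values without single libraries ranged from -1.56 to -1.12 for Col18a1, which lost the call only without eWAT WT-2 (-1.37, adjusted p = 0.054), and from -1.63 to -1.3 for Col5a3, which kept its call without 4 of the 12 libraries in turn. Without the 3 BAT libraries with the most muscle marker counts neither was called (-0.9 and -1.1, adjusted p = 0.141 and 0.272).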

How the results depend on the processing

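DESeq2 called 12 collagens in iWAT, 3 in eWAT, 11 in BAT and 5 in the BAT minus eWAT interaction, against 0, 0, 4 and 2 with edgeR. Over all genes DESeq2 called 674, 618, 545 and 323 in this order, against 4, 111, 168 and 86 with edgeR. With all 18 libraries in 1 fit 4 collagens were called in iWAT, of 319 genes in all, and 10 in BAT, of 479. Without a filter on low counts 1 was called in iWAT, of 32 genes in all. With a minimum of 10 counts 6 were called between WT eWAT and iWAT, of 2977 genes in all. Same-numbered WT and C6KO libraries come from different mice, so the replicate block joined them by number alone. It gave 1 collagen call in iWAT, of 62 genes in all, and 2 in eWAT, of 414. It changed no other count by over 1.5 times. The labels do not say whether same-numbered libraries of different depots share an animal. Without the 3 muscle-rich BAT libraries, left out after the values were seen, 1 was called in BAT (10 in the same kind of fit with all 18 libraries) and 0 in the BAT minus eWAT interaction. Leaving out each library in turn gave 0 to 13 collagen calls in iWAT, where 3 to 1278 genes were called in all. In BAT it gave 0 to 4, of 28 to 178 genes in all. The eWAT comparison stayed at 0, of 2 to 347 genes. The eWAT minus iWAT interaction gave 0 to 1 (Col3a1, without iWAT C6KO-3), of 0 to 206 genes. BAT minus iWAT gave 0 to 1 (Col14a1, without BAT WT-2), of 13 to 107 genes, and BAT minus eWAT 0 to 3, of 28 to 111. Between WT depots the collagen counts were 9 to 13, 18 to 22 and 22 to 24. The genes called in all were 2976 to 3249, 4843 to 5651 and 6456 to 7080 in the same order. Of 5261 alternative values of 344 single-gene results, 4992 kept their side of the threshold, 152 gained a call and 117 lost it. Of the 4992, 93 changed sign, with no call on either side. The cause of these changes was not tested. The 3 libraries of each group and the low depth of BAT limit what could be called among collagens under 1 CPM.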
